A study of Sus scrofa with 32 samples.

Results

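The liver transcriptome of Pietrain pig fetuses at 91 days post coitum (dpc) was compared between offspring of gilts, pigs in their first pregnancy, fed a methyl-enriched gestation diet and offspring of gilts fed a control diet. The comparison takes the arrays whose labels give 91 dpc, 5 from the methyl-enriched diet and 5 from the control diet, which are 10 of the 32 arrays of the series. The other arrays come from the same breed, tissue and diets at 35 dpc (10 arrays) and 63 dpc (12 arrays). All samples are whole liver. Per the design text each stage drew on 5 to 6 gilts, and no array is tied to a dam or litter by its labels. If that count covers both diets together, some of the 10 arrays share a dam. Here n counts arrays and not dams, and p-values measure only the spread between arrays.

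Methyl groups reach the cell's methyltransferases through S-adenosylmethionine, which is made from methionine. The product left after methyl transfer is turned into homocysteine, which is either remethylated with folate or betaine as methyl donor or drawn off into cysteine synthesis. The liver carries out most of this traffic in the body. Before birth it also makes blood cells, and late in gestation it takes on the secretory and glucose-producing functions of the newborn liver.

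Each array measured 23999 pig probe sets beside its control probe sets, and 15327 of them were bright enough to test. A value is the deposited log2 signal of a probe set, on which a difference of 1 is a 2-fold difference. Probe sets below the 40th percentile of an array, which lay between 2.74 and 2.93, are called below background. The hepatocyte transcripts ALB, TTR, APOA1 and SERPINA1 were near the top of the scale in every group, with albumin at 15.4 ± 0.081 in methyl-diet livers and 15.3 ± 0.12 in control livers (SD, n = 5 each). The spike-in controls bioC and bioB stood far apart on 18 of the 32 arrays (1.33 to 1.97, here high-gap arrays) and close together on the other 14 (-0.048 to 0.40, low-gap arrays). At 91 dpc 3 methyl-diet and 3 control arrays were high-gap, and 2 of each were low-gap. The first principal component of these 10 arrays, with 38.3% of the variance, was negative in every high-gap and positive in every low-gap array. EIF1AY, a Y-linked gene, was near the lowest value (2.64) in methyl-diet replicates 4 and 5 and at least 7.04 in the other 8 arrays of 91 dpc. Results are given with this in view, since the labels do not give fetal sex. The number of arrays limits the precision.

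At 91 dpc 11 of the 15327 probe sets differed between diets (0.0718%) at an adjusted p under 0.05 by limma. Of these, 5 were higher in methyl-diet livers (0.0326%) and 6 were lower (0.0391%). The named genes were CA3, which was higher, and DDX39B, SATB1, LRP6 and SPARCL1, which were lower, and the other 6 probe sets carry no gene symbol. At an unadjusted p under 0.05, 1000 probe sets differed (6.52%), of which 282 were higher (1.84%) and 718 lower (4.68%). The methyl-diet and control values did not overlap for 114 probe sets (0.744%), with all methyl-diet values above in 22 (0.144%) and below in 92 (0.6%). The spread in this fit came from all 32 arrays, and a fit of the 91 dpc arrays alone called 0, with 887 at an unadjusted p under 0.05. Without methyl-diet replicate 1, 1 probe set was called, and without methyl-diet replicate 2, 43 were. The smallest called difference was 0.73 in size, against a median standard error of 0.22 over all probe sets.

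**Figure D1:**
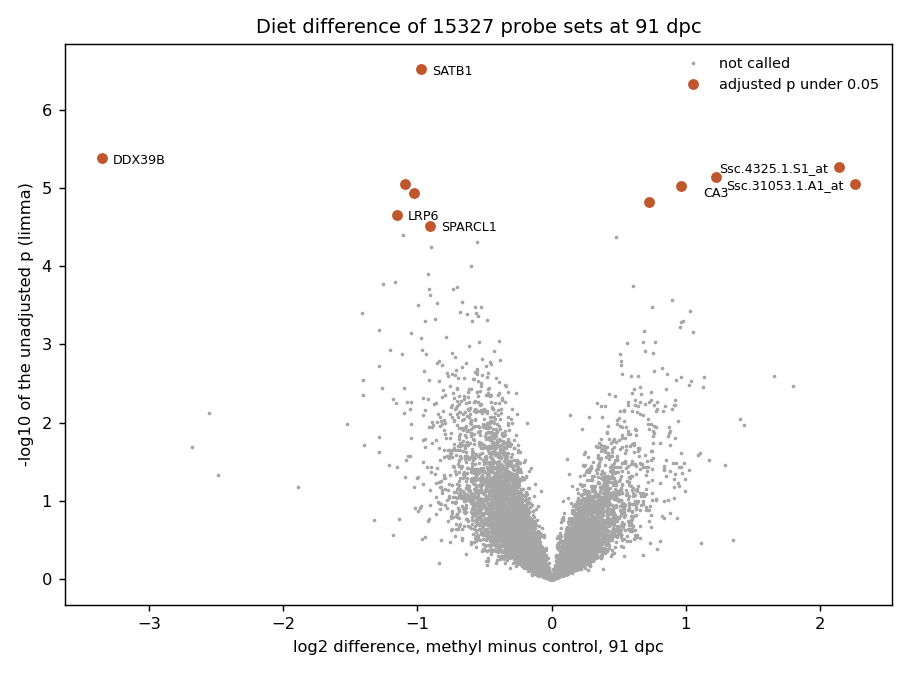
Each point is 1 of the 15327 probe sets tested at 91 dpc, with the log2 difference of methyl-diet minus control livers on the horizontal axis and minus log10 of the unadjusted limma p on the vertical axis. The 11 probe sets called are orange, and points left of 0 (lower in methyl-diet livers) outnumber those right of 0 among the small p-values, 718 against 282 at p under 0.05.

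CA3, a cytosolic carbonic anhydrase abundant in skeletal muscle, liver and fat, rose with the methyl diet. Its probe set Ssc.19866.1.S1_at read 6.93, 5.81, 5.98, 5.67 and 5.80 in methyl-diet livers, against 4.76, 5.07, 5.02, 3.71 and 5.51 in control livers. Every methyl-diet array was above every control array. The difference was 1.22 ± 0.23 (SE), or 2.34-fold (limma, adjusted p = 0.0206, n = 5 each). The second CA3 probe set, Ssc.10960.1.S1_at, averaged 6.86 ± 0.41 in methyl-diet and 6.07 ± 0.46 in control livers (SD), a difference of 0.78 ± 0.27 (SE) that was not called (adjusted p = 0.457 by limma), and its groups overlapped. Of 18 muscle and diaphragm markers on the array, 5 did not pass the brightness filter and none of the other 13 was called. Their mean level ran from 4.62 to 5.28 in methyl-diet and from 4.55 to 4.79 in control livers, 10 of the 13 had positive differences, and their part in the CA3 difference was not tested.

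DDX39B, an RNA helicase that acts in splicing and mRNA export, had the largest called difference. Its probe set Ssc.12005.1.A1_at read 2.78, 2.71, 3.95, 3.74 and 3.61 in methyl-diet livers, against 7.52, 5.77, 7.32, 5.75 and 7.17 in control livers. The highest methyl-diet value was below the lowest control value, and 2 methyl-diet arrays were below background. The probe set also varied widely within a diet at 63 dpc, from 3.81 to 7.48 in control and from 5.14 to 7.70 in methyl-diet livers. At 35 dpc it ran from 3.94 to 6.18 in control and from 4.02 to 5.85 in methyl-diet livers. The difference was -3.35 ± 0.60 (SE), with an adjusted p of 0.0206 by limma. The second probe set of the gene, Ssc.11719.1.A1_at, was far brighter and did not share it, at 10.01 ± 0.22 in methyl-diet and 10.01 ± 0.39 in control livers (SD, n = 5 each). Probe sets of 1 gene can read different transcripts, and which transcripts these read is not recorded in the sources used here, so the difference is one of this probe set and not of the whole gene. The low-gap control arrays read 5.77 and 5.75 and the high-gap ones 7.17 to 7.52, and the difference was -3.89 within the high-gap and -2.54 within the low-gap arrays.

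SATB1, a chromatin organizer that binds AT-rich DNA and is best known in T cells, was lower at its probe set Ssc.23516.2.S1_at. It read 2.20, 2.32, 2.20, 2.20 and 2.20 in methyl-diet livers, against 3.15, 3.47, 3.47, 3.49 and 2.40 in control livers. All 5 methyl-diet arrays were below background, 4 of them at the lowest value of the table, and so was 1 control array. The fitted difference was -0.97 ± 0.15 (SE), with an adjusted p of 0.00471 by limma, and against the background level the signal was at least 1.28-fold lower. The brightest SATB1 probe set, Ssc.23516.1.S1_at, averaged 7.95 ± 0.54 in methyl-diet and 8.28 ± 0.55 in control livers (SD), a difference of -0.33 ± 0.34 (SE) that was not called. Another, Ssc.13791.1.A1_at, averaged 3.11 ± 0.88 in methyl-diet and 3.74 ± 0.23 in control livers (adjusted p = 0.476 by limma), and the fourth stayed at or near the lowest value. The mean level of the 8 lymphocyte and antigen presentation genes tested ran from 6.63 to 7.27 in methyl-diet and from 6.93 to 7.53 in control livers, and its part in the SATB1 difference was not tested. In whole tissue, fewer cells of a type and less RNA per cell cannot be told apart.

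LRP6, a co-receptor for Wnt ligands, was lower at Ssc.4693.3.S1_a_at. The values were 2.64, 3.27, 2.86, 2.99 and 2.66 in methyl-diet livers, against 2.75, 4.56, 4.75, 4.11 and 4.02 in control livers. The groups overlapped through control replicate 1, which read like a methyl-diet array. Below background were 2 methyl-diet arrays and 1 control array. The difference was -1.15 ± 0.23 (SE, adjusted p = 0.0336 by limma). The second LRP6 probe set, Ssc.4693.3.S1_at, averaged 3.85 ± 0.83 in methyl-diet and 4.34 ± 0.63 in control livers (SD), which was not called. Its difference was -1.02 within the high-gap and 0.30 within the low-gap arrays.

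SPARCL1, a secreted matrix-associated glycoprotein of the SPARC family, read 2.69, 2.51, 3.03, 2.61 and 2.27 in methyl-diet livers and 3.80, 3.03, 4.56, 2.79 and 3.44 in control livers at Ssc.6531.1.A1_at. In methyl-diet livers 4 of the 5 arrays were below background, as was 1 control array. The groups overlapped, and the difference was -0.90 ± 0.18 (SE, adjusted p = 0.0424 by limma). With methyl-diet arrays below background set to that level it was 0.65 in size, or 1.57-fold. The fitted difference was -1.27 within the high-gap and -0.35 within the low-gap arrays. A second SPARCL1 probe set stood at the lowest value of 2.20 on all 32 arrays. Among markers of matrix-forming cells, 18 of 24 stellate cell, fibroblast and matrix genes had negative differences with a median of -0.17, and none was called. Their mean level ran from 7.17 to 7.45 in methyl-diet and from 7.31 to 7.66 in control livers, and its part in the SPARCL1 difference was not tested.

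**Figure D2:**
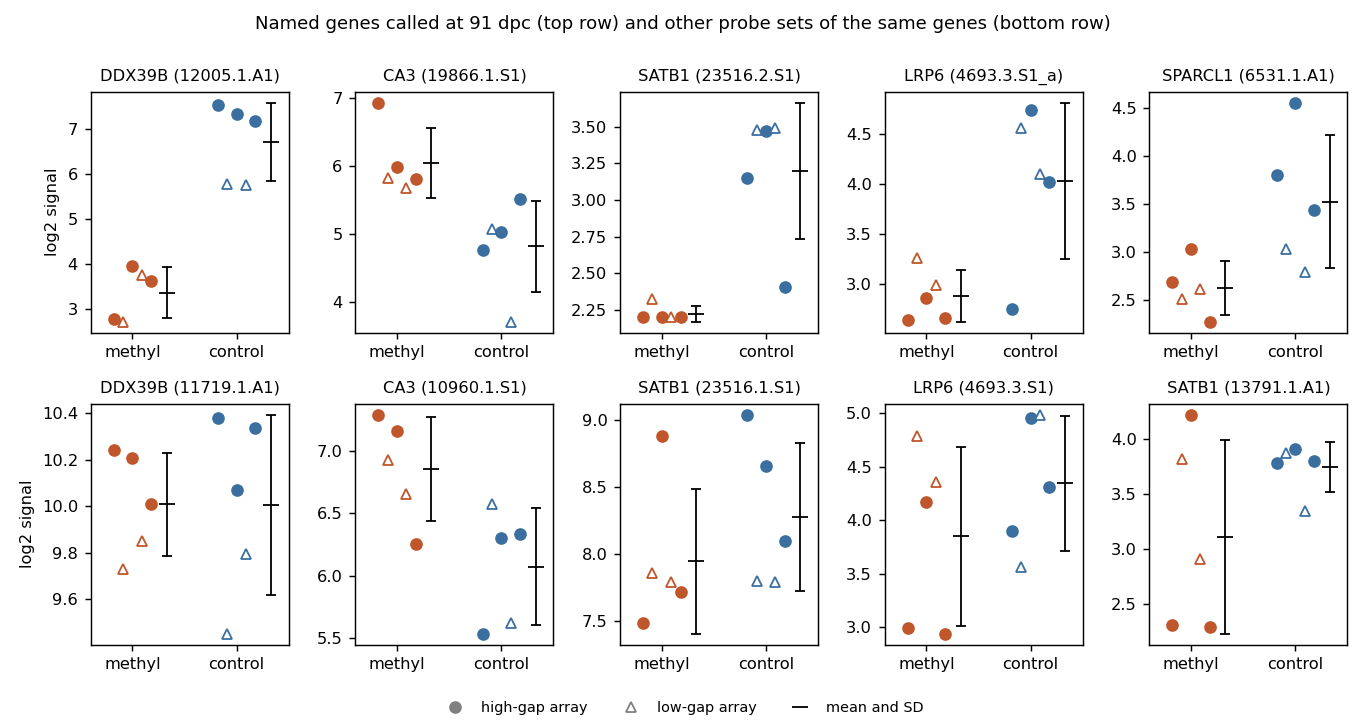
Log2 signal of each 91 dpc array for the called probe sets of 5 named genes (top row) and for other probe sets of the same genes (bottom row, with 2 for SATB1), methyl-diet arrays left of control arrays, circles for high-gap and triangles for low-gap arrays, and bars for the mean and SD of 5 arrays. DDX39B, CA3 and SATB1 separate the diets completely in the top row, while every probe set in the bottom row overlaps.

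Leaving out 1 array at a time, the SATB1 call held in each of the 10 fits, with a highest adjusted p of 0.0223 by limma. These fits kept the arrays of the other ages in the spread, and kept the probe sets that the filter had chosen with all arrays in. SATB1 passed that filter with no array to spare, mainly through control arrays of the age compared (3.15 to 3.49). At the other ages its highest value was 2.99, in a methyl-diet liver. Without any 1 of those control arrays it would have missed the filter, and its selection by the filter was not tested. SPARCL1 also passed with no array to spare, all of the age compared. Over all 24 alternative fits the SATB1 call was lost in 2, with a highest adjusted p of 0.809 by limma. CA3 and DDX39B lost the call without methyl-diet replicate 1 (adjusted p of 0.0929 and 0.0876 by limma). LRP6 and SPARCL1 each lost it in 6 of the 10 fits. Without methyl-diet replicates 4 and 5, the arrays with little EIF1AY, 5 probe sets were called, and among the 11 these were CA3 and SATB1 (both adjusted p = 0.047 by limma).

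The 6 called probe sets without a gene symbol included the other large increases. Ssc.31053.1.A1_at read 6.11, 3.33, 5.12, 4.33 and 6.95 in methyl-diet livers, against 2.90, 2.81, 3.43, 2.67 and 2.73 in control livers. It was thus clearly expressed in most methyl-diet livers and close to background in the controls, with an overlap through methyl-diet replicate 2, and the difference was 2.26 ± 0.42 (SE, adjusted p = 0.0206 by limma). The difference was 3.04 within the high-gap and 1.09 within the low-gap arrays.

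Ssc.4325.1.S1_at read 6.05, 5.34, 6.41, 5.73 and 6.89 in methyl-diet livers and 2.64, 3.22, 3.71, 4.25 and 5.91 in control livers, a difference of 2.14 ± 0.39 (SE, adjusted p = 0.0206 by limma). Control replicate 5, at 5.91, lay among the methyl-diet values and the other 4 control arrays lay below all of them. Ssc.17522.1.A1_at was lower in methyl-diet livers without overlap, at 3.66 to 3.70 against 4.29 to 5.04 in control livers, a difference of -1.09 ± 0.20 (SE, adjusted p = 0.0206 by limma). Of its methyl-diet arrays, 4 were within 0.02 of 3.67, a value shared by 14 of the 32 arrays. Ssc.19138.1.A1_at was lower with overlap, at 2.62 to 3.40 in methyl-diet and 3.10 to 4.65 in control livers (-1.02 ± 0.20 SE, adjusted p = 0.0223 by limma). The remaining pair, Ssc.8422.1.A1_at and Ssc.18188.2.A1_at, fell outside the naming rule and is given after its values were seen. Ssc.8422.1.A1_at was higher in every methyl-diet array, 4.71 to 4.96 against 3.48 to 4.05 in control livers, and Ssc.18188.2.A1_at likewise, 5.75 to 6.43 against 4.69 to 5.61. Of the 11 called probe sets, 6 did not overlap between diets, beside 114 of all 15327 (0.744%). The calls rest on the same differences, so this count gives no separate evidence.

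**Figure D3:**
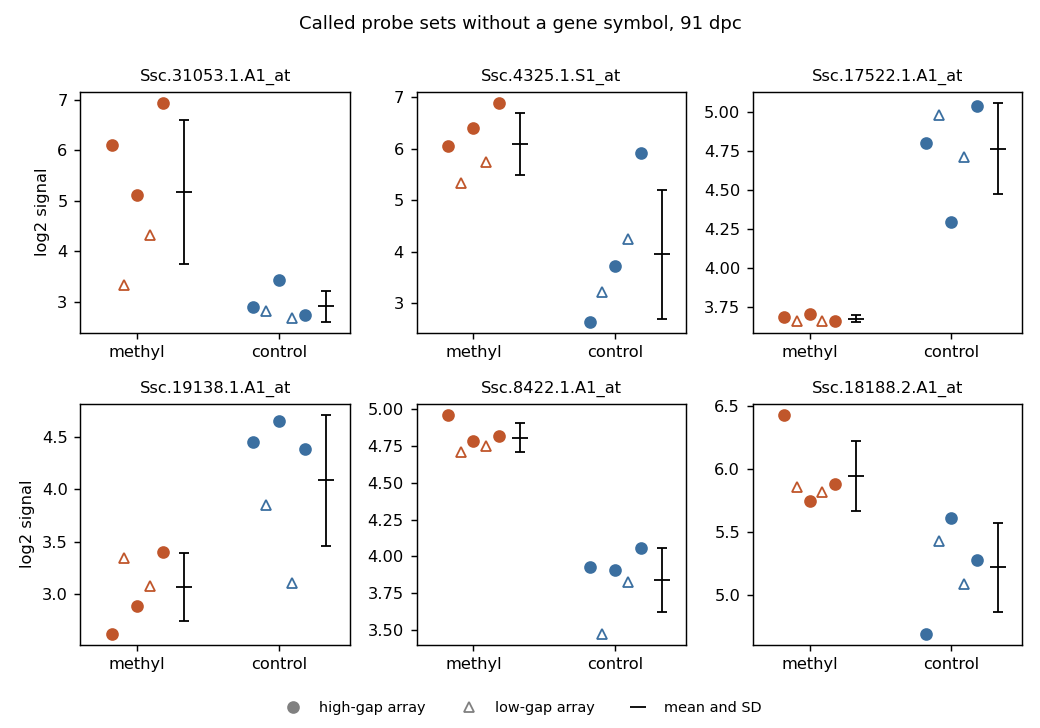
Log2 signal of each 91 dpc array for the 6 called probe sets without a gene symbol, methyl-diet arrays left of control arrays, circles for high-gap and triangles for low-gap arrays, and bars for the mean and SD of 5 arrays. The upper left panel has 1 low-gap methyl-diet array near the controls, and in the upper middle panel control replicate 5 stands among the methyl-diet arrays.

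The same probe sets were set beside the diet comparison at 63 and 35 dpc, which used other fetuses, to ask whether the diet difference varied with age. At 35 dpc the diet comparison gave 933 probe sets at an unadjusted p under 0.05 (6.09%), with 6 called by limma, and at 63 dpc 219 (1.43%), with 0 called. None of the 15327 probe sets was called for a difference between the diet effects at 91 and 63 dpc, or at 91 and 35 dpc, by limma. At an unadjusted p under 0.05, 753 (4.91%) and 762 (4.97%) were counted. DDX39B came nearest to such a call, with diet differences of -0.20 ± 0.60 at 35 dpc, 1.12 ± 0.55 at 63 dpc and -3.35 ± 0.60 at 91 dpc (SE). Its diet effect at 91 dpc minus that at 63 dpc was -4.46 ± 0.81 (SE), with an adjusted p of 0.0819 by limma, and with the spike-in gap as a block the adjusted p was 0.0277.

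For CA3 the diet differences were 0.08 ± 0.23 at 35 dpc, -0.11 ± 0.21 at 63 dpc and 1.22 ± 0.23 at 91 dpc (SE), and the 91 minus 63 dpc difference was not called (adjusted p = 0.32 by limma). The called CA3 probe set averaged 2.27 ± 0.06 in methyl-diet and 2.38 ± 0.15 in control livers at 63 dpc (SD, n = 6 each), below background in both diets. The second CA3 probe set was above background at that age, at 3.53 in methyl-diet and 3.78 in control livers. The called SATB1 probe set averaged 2.22 ± 0.04 in methyl-diet and 2.20 ± 0.00 in control livers at 63 dpc, which is the lowest value of the table. SPARCL1 stood at 2.26 ± 0.03 in both diets at that age, and LRP6 at 2.66 ± 0.16 in methyl-diet and 2.63 ± 0.34 in control livers. For these 4 genes the called probe set was thus at or below background in both diets at 63 dpc. Those arrays enter the spread behind the standard errors at 91 dpc, with SDs of 0.00 to 0.04 for SATB1 and SPARCL1. Across all probe sets, the diet difference at 91 dpc correlated with that at 63 dpc at r = -0.08 and with that at 35 dpc at r = 0.07, a description across probe sets, which are not independent.

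**Figure D4:**
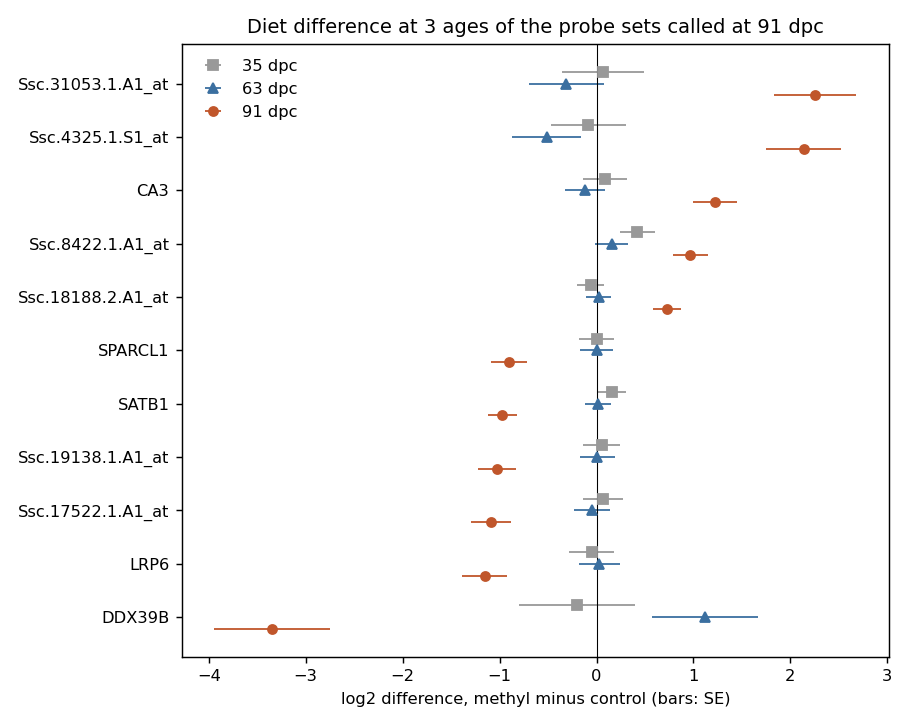
Log2 difference of methyl-diet minus control livers at 35, 63 and 91 dpc, with standard error bars, for the 11 probe sets called at 91 dpc. The values at 91 dpc were what chose these probe sets, and at 35 and 63 dpc most points lie near 0, with DDX39B at 1.12 at 63 dpc.

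Genes with the next smallest p-values were looked at because few named genes passed. PANK1, a pantothenate kinase of coenzyme A synthesis, missed the threshold at Ssc.21258.2.A1_at with 3.70, 3.0, 3.20, 3.54 and 3.29 in methyl-diet livers and 2.99, 2.81, 2.91, 2.83 and 2.81 in control livers (adjusted p = 0.0505 by limma). Its groups did not overlap, but the values lay close to background, and the bright PANK1 probe set Ssc.13562.1.A1_at differed by -0.29 ± 0.22 (SE). At Ssc.21258.2.A1_at 3 control arrays were within 0.02 of 2.81, a value shared by 23 of the 32 arrays. CAMK1D, a calmodulin-dependent kinase, averaged 3.08 ± 0.17 in methyl-diet and 3.64 ± 0.28 in control livers (adjusted p = 0.0538 by limma), and was called with the spike-in gap as a block (0.0354). Of its methyl-diet arrays, 3 were within 0.02 of 2.98, a value shared by 22 of the 32 arrays.

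SLC2A1, the GLUT1 glucose transporter of fetal tissues and red cells, read 6.02, 7.61, 6.93, 6.11 and 6.64 in methyl-diet livers, against 7.75, 7.51, 7.48, 8.48 and 8.39 in control livers. Only methyl-diet replicate 2 reached into the control range, and the difference was -1.26 ± 0.29 (SE, adjusted p = 0.132 by limma). Both diets had far higher levels earlier, 11.19 ± 0.47 in methyl-diet and 11.06 ± 0.42 in control livers at 63 dpc (SD, n = 6 each). PCK2, the mitochondrial enzyme that makes phosphoenolpyruvate from oxaloacetate, read 9.01, 9.75, 9.88, 9.38 and 9.53 in methyl-diet livers and 11.19, 10.02, 10.73, 9.61 and 10.55 in control livers. Its difference was -0.91 ± 0.22 (SE, adjusted p = 0.132 by limma), -1.35 within the high-gap and -0.25 within the low-gap arrays. Its other 2 probe sets differed by -0.92 and -1.29. The former was -1.24 within the high-gap and -0.45 within the low-gap arrays, and the latter -2.21 and 0.10. MKNK1, a kinase of the translation factor eIF4E, ran from 7.88 to 8.85 in methyl-diet and from 8.98 to 9.62 in control livers without overlap (adjusted p = 0.132 by limma). TM9SF4, a transmembrane protein, and FBXO32, the atrogin-1 ubiquitin ligase subunit, differed by -0.92 and -0.91 and were not called. Their other tested probe sets differed less. For TM9SF4 these averaged 8.11 and 5.97 in methyl-diet livers, against 8.50 and 6.19 in control livers. The brighter FBXO32 probe set averaged 5.58 in methyl-diet and 6.05 in control livers.

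On the other side, KIF3A, a kinesin motor of cilia assembly, averaged 3.92 ± 0.79 in methyl-diet and 2.90 ± 0.48 in control livers (SD, adjusted p = 0.172 by limma). GPATCH4, WDFY1, HLTF, PPOX, SPECC1L, CDC37L1 and CTR9 followed with differences of 0.52 to 0.86 and adjusted p-values up to 0.398. HLTF is a DNA translocase of replication fork repair, PPOX an enzyme of heme synthesis and CTR9 a subunit of the PAF1 transcription elongation complex. In all 8 of these genes the difference was larger within the high-gap arrays than within the low-gap arrays, for example 1.47 and 0.36 for KIF3A and 1.18 and -0.02 for WDFY1. The part of the spike-in gap in these differences was not tested. The other tested probe sets of KIF3A, GPATCH4, PPOX and CDC37L1 differed by -0.32 to 0.21, and none was called.

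The genes of methyl metabolism were looked at whatever their p, each by its brightest probe set. Over all 5594 named genes so measured, the median difference was -0.04, with 3325 negative and 2260 positive, against which the sign counts of the lists are to be read. After quantile normalization 2722 were negative and 2871 positive. By the fit over all probe sets 1 gene was called (0.0179%), which was SPARCL1. Its probe set read at most 2.27 at the other ages, below background. It thus passed the brightness filter only through arrays of the age compared, mainly control arrays (3.03 to 4.56). The part of the filter in this call was not tested. No member of the 42 gene lists was called, and 334 of the 5594 genes had an unadjusted p under 0.05 (5.97%), 71 with a positive difference (1.27%) and 263 with a negative one (4.7%).

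In the methionine cycle, 9 of 10 genes had negative differences, with a median of -0.18. CTH, which splits cystathionine to cysteine, read 10.35, 10.40, 10.20, 9.90 and 10.14 in methyl-diet livers, against 10.77, 10.61, 10.74, 10.53 and 10.73 in control livers. The groups did not overlap, and the difference of -0.48 ± 0.17 (SE) was not called over all probe sets (adjusted p = 0.457 by limma). MAT1A, the S-adenosylmethionine synthetase of adult liver, averaged 11.33 ± 0.07 in methyl-diet and 11.50 ± 0.08 in control livers (SD). MAT2A, the synthetase of fetal and extrahepatic tissue, averaged 11.03 ± 0.33 in methyl-diet and 11.10 ± 0.34 in control livers.

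AHCY, which hydrolyses S-adenosylhomocysteine, differed by -0.28, and BHMT, which remethylates homocysteine with betaine, by -0.24. BHMT varied widely within each diet, from 9.81 to 11.79 in methyl-diet and from 10.64 to 11.82 in control livers. ALDH7A1, which helps make betaine, differed by -0.55 ± 0.51 (SE). MAT2B, the regulatory subunit of MAT2A, differed by -0.14 ± 0.19, MTR, the folate-dependent methionine synthase, by -0.18 ± 0.13, and CHDH, which oxidizes choline, by -0.11 ± 0.27 (SE). MTR was near background, with 4 methyl-diet and 2 control arrays below it. GNMT, a methyltransferase that disposes of excess methyl groups, was the positive one, at 3.21 ± 0.41 in methyl-diet and 3.01 ± 0.48 in control livers (SD), near background. At 63 dpc 8 of these 10 genes had positive differences with a median of 0.20, and at 35 dpc 5 of 10 with a median of 0.00. The difference between ages was not tested for the list.

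Of 14 folate one-carbon genes, 9 had negative and 5 positive differences, with a median of -0.09. MTHFD1L, a mitochondrial enzyme that makes formate, had the largest, with 6.27, 7.17, 6.07, 5.50 and 5.34 in methyl-diet livers and 7.28, 7.31, 7.20, 6.35 and 6.51 in control livers. The groups overlapped, and the difference was -0.86 ± 0.34 (SE, adjusted p = 0.583 by limma). It was -0.43 without methyl-diet replicates 4 and 5. The interconverting enzymes MTHFD1 and MTHFD2 differed by -0.09 and 0.12, and SHMT1, FTCD, ALDH1L1 and AMT by 0.09 to 0.26. TYMS, which makes thymidylate, differed by -0.42, and by -0.21 without methyl-diet replicate 3. The purine enzymes GART and ATIC differed by -0.22 and -0.21 and the hydrolase GGH by -0.19. The folate receptors and transporter FOLR1, FOLR2 and SLC46A1 differed by -0.03, -0.09 and -0.10. None of these was called.

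Among genes of DNA methylation, DNMT1, the maintenance methyltransferase, averaged 10.21 ± 0.29 in methyl-diet and 10.23 ± 0.16 in control livers (SD). DNMT3A, a de novo methyltransferase, averaged 8.0 ± 0.13 in methyl-diet and 8.03 ± 0.72 in control livers, with control arrays from 6.97 to 8.67. DNMT3B, the other de novo enzyme, was near background at 3.11 ± 0.64 in methyl-diet and 2.88 ± 0.33 in control livers. The differences of these 3 genes were -0.02 ± 0.18, -0.03 ± 0.26 and 0.23 ± 0.34 (SE).

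GADD45A, a stress-induced protein linked to DNA demethylation and repair, averaged 8.72 ± 0.19 in methyl-diet and 9.13 ± 0.14 in control livers (SD), a difference of -0.41 ± 0.15 (SE, adjusted p = 0.513 by limma). MBD2, a reader of methylated DNA, differed by -0.26 ± 0.12 (SE), and MBD1, GADD45B and GADD45G by -0.003, 0.10 and -0.23. None was called. Of 9 genes that handle vitamin B12 and zinc, 6 had negative differences, among them MT1A, a zinc-binding metallothionein, at 14.49 ± 0.50 in methyl-diet and 14.97 ± 0.23 in control livers (SD), and the zinc importer SLC39A14 (-0.43). The MT1A difference of -0.48 was -0.27 without methyl-diet replicate 1. That of SLC39A14 was -0.24 without control replicate 1, -0.72 within the high-gap and -0.007 within the low-gap arrays. Of 13 imprinted genes, 10 had negative differences with a median of -0.06, and 8 after quantile normalization, with a median of -0.02.

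**Figure D5:**
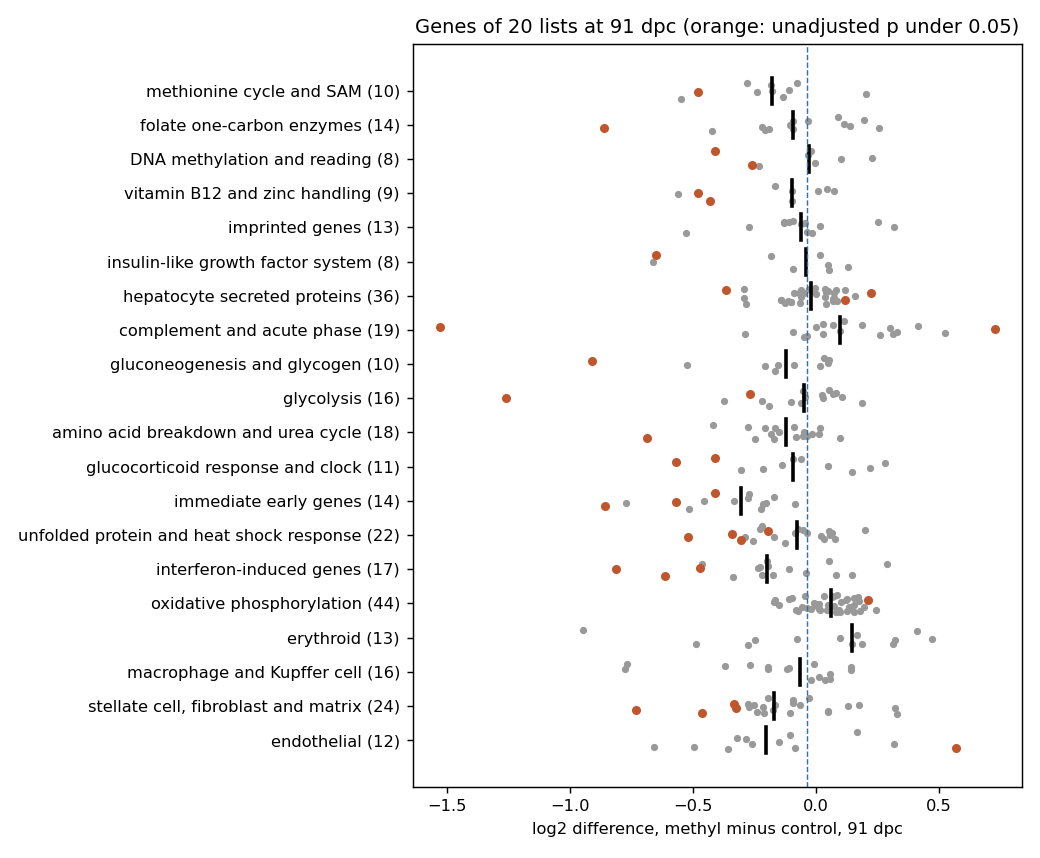
Log2 difference of methyl-diet minus control livers at 91 dpc for the genes of 20 lists, 1 point per gene by its brightest probe set, with the number of genes in brackets, black bars for list medians and a dashed line for the median of all probe sets (-0.04). Orange points have an unadjusted p under 0.05, none was called, and all 14 immediate early genes lie left of 0.

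No gene of the liver function lists was called. Of 36 hepatocyte secreted proteins, 15 had positive and 21 negative differences with a median of -0.02. APOA2, a lipoprotein component, was higher in every methyl-diet array, 14.84 to 15.04 against 14.57 to 14.83 in control livers, and HPX, which binds free heme, lower in every one, 11.86 to 12.10 against 12.11 to 12.55. Neither was called (adjusted p of 0.526 and 0.608 by limma), and the iron carrier TF differed by 0.12. Of 19 complement and acute phase genes, 13 had positive differences with a median of 0.10. C8A, a component of the membrane attack complex, averaged 11.31 ± 0.46 in methyl-diet and 10.58 ± 0.34 in control livers (SD, adjusted p = 0.454 by limma).

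APCS, the serum amyloid P component, had a difference of -1.53 ± 0.56 (SE) that was not called. It read 6.08, 10.02, 9.83, 7.83 and 8.98 in methyl-diet livers, against 10.48, 10.80, 10.84, 9.20 and 9.06 in control livers. The methyl-diet arrays spread over a far wider range than the control arrays, and the difference was -0.91 without methyl-diet replicate 1. TAT, the first enzyme of tyrosine breakdown, which rises in liver around birth under glucocorticoids, averaged 12.02 ± 0.58 in methyl-diet and 12.71 ± 0.29 in control livers (SD, adjusted p = 0.451 by limma). It belongs to the 18 genes of amino acid breakdown and the urea cycle, of which 15 had negative differences at 91 dpc, with a median of -0.12, and 12 after quantile normalization, with a median of -0.06. At 63 dpc 16 of the 18 had positive differences, with a median of 0.17. Over all 5594 named genes 3325 were negative at 91 dpc and 3211 positive at 63 dpc, and the difference between ages was not tested for the list. Of 11 genes of the glucocorticoid response and the clock, 4 had positive and 7 negative differences, from -0.57 for KLF9 to 0.28, with a median of -0.09, and SGK1 differed by -0.41. IGFBP1, the secreted insulin-like growth factor binding protein of fetal liver, differed by -0.65 ± 0.26 (SE). None of these was called.

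Lipid and energy genes had differences of both signs. PLIN2, a lipid droplet coat protein, differed by -0.55, ACSS2, which makes acetyl-CoA from acetate, by 0.48 and TM7SF2, a sterol reductase, by 0.30. PGK1, a glycolytic kinase, differed by -0.27. Of 44 oxidative phosphorylation genes, 31 had positive differences with a median of 0.06, NDUFB5 of complex I with 0.21 among them. This split was 34 to 10 within the high-gap arrays and 16 to 28 within the low-gap arrays, so its direction was not the same in both sets of arrays. Antioxidant genes included PRDX5, a peroxiredoxin, at 0.33, and GCLC, the rate-limiting enzyme of glutathione synthesis, which was lower in every methyl-diet array, 10.21 to 10.44 against 10.53 to 11.06 in control livers (adjusted p = 0.734 by limma).

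Immediate early genes, which respond within minutes to growth factors and stress, had the most one-sided pattern of the lists with at least 10 genes. All 14 tested had negative differences, with a median of -0.30 beside -0.04 over all named genes, and none was called. KLF4, a zinc finger transcription factor, read 3.18, 3.30, 3.14, 3.14 and 3.10 in methyl-diet livers and 3.14, 4.75, 4.70, 3.54 and 4.02 in control livers, and control replicate 1 alone reached down to the methyl-diet values. MYC, a growth regulator, averaged 8.16 ± 0.23 in methyl-diet and 8.73 ± 0.36 in control livers (SD), and both genes had an adjusted p of 0.166 by limma. IER5 differed by -0.41. Within the high-gap arrays all 14 were negative and within the low-gap arrays 11 of 14. After quantile normalization all 14 were negative with a median of -0.26. At 63 dpc 9 of the 14 were positive and at 35 dpc 8 of 14.

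Of 22 genes of the unfolded protein and heat shock response, 14 had negative differences with a median of -0.08. XBP1 and ATF4, transcription factors of that response, differed by -0.30 and -0.34, DDIT3 by -0.52 and the mitochondrial chaperonin HSPE1 by -0.19. Of 17 interferon-induced genes, 13 had negative differences with a median of -0.20. OAS1, a sensor of double-stranded RNA, averaged 2.86 ± 0.26 in methyl-diet and 3.67 ± 0.68 in control livers (SD). DDX58, which encodes RIG-I, averaged 2.85 ± 0.11 in methyl-diet and 3.33 ± 0.36 in control livers, both genes close to background, and IFIT3 differed by -0.61. None was called. Splicing genes were negative in 24 of 34, with SF3A1 at -0.62, SRSF3 at -0.28 and SNRPB at -0.41 beside HNRNPA1 at 0.36. After quantile normalization, 19 of these 34 were negative. Cytosolic ribosomal protein genes had a median of 0.01, with RPL37 at -0.40, and RHEB, an activator of mTOR, differed by -0.25.

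Markers of the cell types in fetal liver gave no called gene. The 13 erythroid genes had mean levels of 8.64 to 9.78 in methyl-diet and 8.95 to 9.83 in control livers, and averaged 9.26 in methyl-diet and 9.25 in control livers (exact two-sided permutation p = 0.968). The median erythroid difference was 0.15, but 0.32 within the high-gap and -0.25 within the low-gap arrays. The stellate cell list included RGS5, a pericyte marker (-0.73), and MMP2, a matrix protease (-0.46). It also held PDGFRB, a pericyte and stellate cell receptor (-0.33), and VIM, an intermediate filament protein (-0.33). Another 6 of its 24 genes had positive differences, up to 0.33. After quantile normalization 16 of the 24 were negative, and within the low-gap arrays 14. Of 12 endothelial genes 9 had negative differences, with a median of -0.20, against which VWF, a clotting glycoprotein of endothelium, stood at 0.57. Of 10 cholangiocyte and hepatoblast genes 9 were negative, including SPP1 (-0.69) and KRT18 (-0.33), and this was 6 of 10 after quantile normalization.

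Among other immune genes, SLA-DQA1, an MHC class II chain, differed by -0.68, and macrophage and Kupffer cell genes had a median of -0.06. Of 26 cell cycle and DNA replication genes, 15 had positive differences, among them RRM1, a ribonucleotide reductase subunit (0.39), and CCND2, a cyclin (0.59). This list was positive in 18 of 26 within the high-gap arrays and in 4 of 26 within the low-gap arrays.

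The technical measures were compared between the diets at 91 dpc. The spike-in gap averaged 1.22 in methyl-diet and 1.21 in control arrays. The 3' to 5' ratio of actin, GAPDH and EF1A control probe sets, on the log2 scale, averaged 2.05 ± 0.47 in methyl-diet and 1.63 ± 0.27 in control arrays (SD, exact two-sided permutation p = 0.103, n = 5 each). Leaving out 1 array gave exact permutation p-values of 0.0397, without methyl-diet replicate 2, to 0.214. Array medians averaged 4.12 in methyl-diet and 4.17 in control arrays (exact two-sided permutation p = 0.0794). With the 3' to 5' ratio as a covariate, 2 of the 11 probe sets remained called, those of SATB1 and DDX39B. With the spike-in gap as a block all 11 remained among 15 called. Across all probe sets the differences within the high-gap and within the low-gap arrays correlated at r = 0.22, a description across probe sets, which are not independent.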

How the data were processed

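Fetal liver RNA was extracted with TRI Reagent, freed of DNA and purified on columns, and biotin-labelled cRNA was hybridised to porcine Affymetrix arrays, per the labels' protocols. The submitters' processing notes list GCOS 1.1.1 and give it no role. The deposited values are 1 log2 signal per probe set and array, from 2.20 to 16.6. The normalization is not given in the sources used here. Array medians ran from 3.83 to 4.22, and the values were used as deposited. No 2 arrays were identical.

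Of 24123 probe sets, 124 controls were set aside, and 15327 above the array's 40th percentile in at least 5 arrays were tested. The platform annotation gives 1 symbol to 10099 probe sets, several to 198 and none to 13826. Of the probe sets with 1 symbol, 9989 had their gene in RefSeq. limma 3.58.1 in R 4.3.3 fitted 6 group means over all 32 arrays with an intensity trend, and p-values were Benjamini-Hochberg adjusted over all probe sets tested, with calls under 0.05. The fit was tested on simulated data. Array-level measures were compared by exact permutation. Gene lists used each gene's brightest probe set and are described by counts and medians.

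Named genes are the called ones with 1 symbol, the smallest p-values up to 10 in each direction, the 2 called probe sets without a symbol of largest difference in each direction, up to 4 members of a list by p, and all members of the methionine, folate and DNA methylation lists. The comparison, its lists and the split by spike-in gap at 1.2 were chosen with earlier results of these data known. Alternatives were other filters, quantile normalization, array weights, covariates, the gap as a block and leaving out arrays. The fit without the methyl-diet arrays with little EIF1AY was chosen after seeing the data. No sequence or coordinate was used here.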

Additional observations from a re-analysis of the deposited data

Results flagged for a closer look

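In 15 of the named probe sets, 1 array of a diet lay far from the other 4 by Dixon's test of a gap against the range of the group. Chance alone flags some groups, and no explanation was weighed. Methyl-diet replicate 1 was the far array for CA3 (6.93), Ssc.18188.2.A1_at (6.43) and RRM1 (11.5), each above the others, and for MKNK1 (7.88), below them. Methyl-diet replicate 2 lay above the others for SATB1 (2.32) and FBXO32 (3.99), replicate 4 for DNMT3B (4.24), and replicate 5 lay below them for OAS1 (2.41). Among control arrays, replicate 2 lay above the others for PPOX (3.96) and CDC37L1 (2.93) and below them for DNMT1 (9.94). Control replicate 1 was low for GADD45A (8.89), replicate 3 for GNMT (2.20), replicate 4 for MAT2B (10.45) and replicate 5 for HLTF (2.44). Several of these lie close to the lowest signal of the table, where small differences separate arrays.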

How the results depend on the processing

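No paired analysis was possible because the labels number no replicate across groups, and the numbers used here only tell the arrays of a group apart. The 11 calls (5 higher, 6 lower) numbered 10 to 13 with no intensity trend, a robust spread or no filter, 9 with quantile normalization, 16 at a threshold of 0.10, 15 with the gap as a block and 15 with the erythroid mean as covariate. With the gap as a block 10 were lower, and at the threshold of 0.10 also 10. They numbered 2 (1 higher, 1 lower) with the stricter filter, 37 (17 higher, 20 lower) with array weights, 5 (3 higher, 2 lower) with EIF1AY as covariate, 2 (0 higher, 2 lower) with the 3' to 5' ratio, and 5 (3 higher, 2 lower) without the methyl-diet arrays with little EIF1AY. The high-gap arrays alone gave 41 (17 higher, 24 lower) and the low-gap arrays alone 4 (1 higher, 3 lower). The arrays of 91 dpc alone gave 0 by limma, with 887 at an unadjusted p under 0.05, and 1 probe set per gene gave 0, with 341. Leaving out 1 array gave 1 to 43 calls, 0 to 16 higher and 1 to 27 lower: 1 without methyl-diet replicate 1, 43 without 2, 20 without 4, 7 without 5, 20 without control replicate 1 and 32 without control replicate 4. These totals count any probe set called. Of the 11, 9 remained without a filter, 4 in the high-gap arrays alone and 1 in the low-gap arrays alone. All 11 remained with array weights, 8 without control replicate 1 and 1 without methyl-diet replicate 1. The causes were not tested. Among probe sets with an unadjusted p under 0.05, 71.8% were lower, and 55% after quantile normalization.

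The diet effect at 91 dpc minus that at 63 dpc gave 0 calls, but 2 with array weights, 1 at the threshold of 0.10, with the gap as a block, with EIF1AY or with the 3' to 5' ratio, 3 with the erythroid mean, 3 within high-gap and 2 within low-gap arrays. The 91 minus 35 dpc effect gave 5 with array weights, 3 within high-gap and 2 within low-gap arrays. Both gave 0 to 2 when 1 array was left out.

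Differences of some uncalled genes changed sign, most but not all of them small over all arrays (WDFY1 was 0.70, CCND2 0.59 and ALDH7A1 -0.55 there). With the 3' to 5' ratio as covariate they were 0.30 for BHMT, 0.29 for ALDH7A1, 0.012 for MTHFD1, -0.081 for ALDH1L1, 0.37 for FOLR1, 0.19 for FOLR2 and 0.049 for GADD45G. With EIF1AY they were -0.0064 for GNMT, 0.057 for CHDH, 0.077 for DNMT1, 0.098 for DNMT3A, -0.13 for DNMT3B, 0.011 for MBD1 and -0.027 for GADD45B. With array weights DNMT1 was 0.013. Within high-gap arrays they were 0.089 for MAT2B, 0.041 for FOLR1, 0.054 for DNMT1 and -0.011 for GADD45B. Within low-gap arrays they were -0.025 for WDFY1, -0.0066 for TF, -0.21 for CCND2, 0.0096 for RHEB, 0.11 for MAT2A, -0.32 for GNMT, 0.033 for MTHFD1, -0.096 for MTHFD2, -0.11 for AMT, 0.62 for DNMT3A and 0.18 for MBD1. After quantile normalization they were 0.017 for FOLR1, 0.048 for DNMT1, 0.019 for DNMT3A and 0.052 for MBD1. Without the methyl-diet arrays with little EIF1AY they were 0.017 for MAT2B, 0.16 for CHDH, 0.0046 for FOLR1, 0.025 for DNMT1, -0.046 for DNMT3B, 0.11 for MBD1 and -0.020 for GADD45B.

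Leaving out 1 array gave ranges across 0 for BHMT (-0.47 to 0.023), CHDH (-0.21 to 0.022), DNMT1 (-0.13 to 0.044), DNMT3A (-0.30 to 0.13), DNMT3B (-0.054 to 0.37), FOLR1 (-0.17 to 0.15), MAT2A (-0.17 to 0.060), MAT2B (-0.21 to 0.048), MBD1 (-0.070 to 0.060) and MTHFD2 (-0.030 to 0.30). The methyl minus control differences of array measures ranged from -0.26 to 0.23 for the gap, -0.12 to 0.16 for the erythroid mean, 0.27 to 0.57 for the 3' to 5' ratio, -0.059 to -0.022 for the median and -2.52 to -1.02 for EIF1AY. Called genes near background, SATB1, LRP6 and SPARCL1, are limited by signal over background.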
